A study of Homo sapiens with 2 samples.

Results

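Matrix metalloproteinases (MMPs) and their tissue inhibitors (TIMPs) were followed through replicative senescence of WI-38, a widely used diploid fibroblast line from human lung. The members were 6 metalloproteinase genes, MMP1, MMP2, MMP3, MMP10, MMP14 and MMP16, and the 4 inhibitor genes TIMP1, TIMP2, TIMP3 and TIMP4. They were picked by gene name in the table of transcripts, which lists 49900 gene names, of which 17965 reached 1 FPKM (sequenced fragments relative to transcript length in kilobases and to the depth of the library) in at least 1 library. All 10 members reached that level. A gene's level was the FPKM summed over its annotated and newly assembled isoforms, 37 transcripts for the 10 genes.

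The young group was 1 culture of proliferating cells at population doubling level 20, and the senescent group was 1 culture at level 52. Both were grown in DMEM, no other treatment is given, and total RNA of each gave 1 library. With 1 library a group there was no spread between cultures to test against. Each difference below is therefore between 2 libraries, and higher or lower means at least 2-fold after 1 FPKM was added to both values (a log2 ratio of at least 1 in size). In bulk RNA, fewer cells of a type and less RNA per cell cannot be told apart.

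Metalloproteinases are zinc endopeptidases that cut collagens, proteoglycans and adhesive glycoproteins of the extracellular matrix. Most are secreted as inactive proenzymes that other proteases, or other metalloproteinases, convert to the active form, and a few are held at the cell surface. TIMPs bind the active enzymes and block them, so matrix turnover depends on the balance of both. Secreted metalloproteinases are well-known components of the senescence-associated secretory phenotype of fibroblasts.

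MMP1, MMP3 and MMP10 were higher in the senescent library, no member was lower, and the other 7 stayed within 2-fold. The 3 genes lie beside each other in 1 metalloproteinase cluster on chromosome 11. Over all measured genes, 6.65% were higher and 8.58% were lower by the same rule. MMP3 and MMP10 reached 1 FPKM in the senescent library only. The members were also chosen with earlier results of these data known, so their count beside these shares is a description and no test. The median log2 ratio of the members was 0.19, beside -0.10 over all measured genes. None of the 4 TIMP genes passed the rule in either direction.

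**Figure D1:**
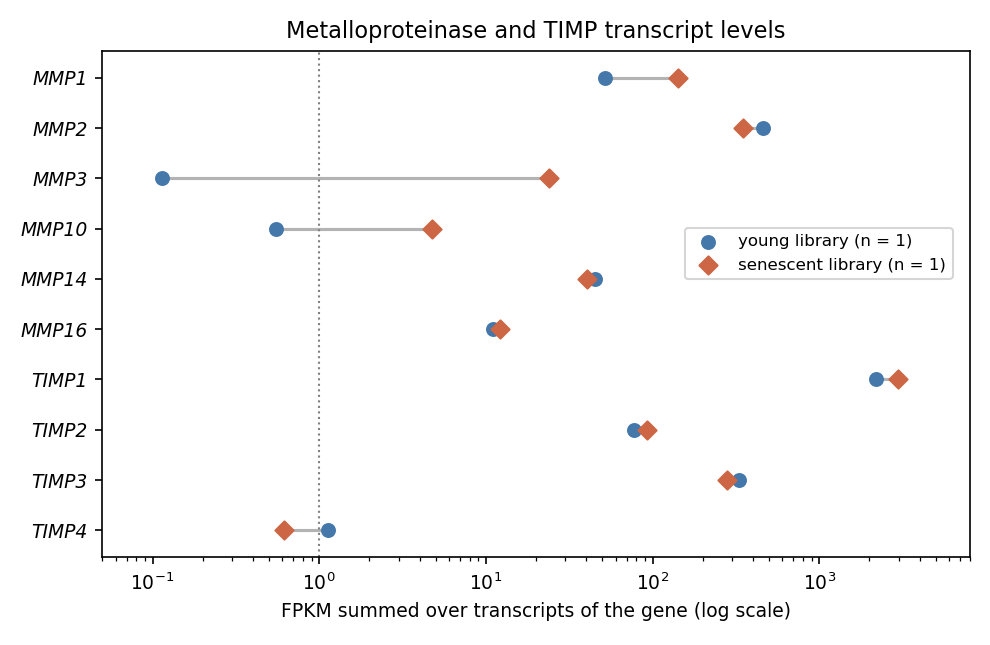
Gene levels in FPKM on a log axis for the 10 members, 1 point for the young library (circle) and 1 for the senescent library (diamond), with a dotted line at 1 FPKM. The wide gaps are those of MMP3 (0.114 and 23.8 FPKM), MMP10 (0.550 and 4.73 FPKM) and MMP1 (51.6 and 143 FPKM), while TIMP1 sits farthest to the right in both libraries.

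MMP1 encodes interstitial collagenase, which cuts fibrillar collagens (hg19, chromosome 11, 102660651 to 102668891, minus strand). Its level was 51.6 FPKM in the young and 143 FPKM in the senescent library, a log2 ratio of 1.45. The whole value came from 1 annotated protein-coding transcript of 1970 bases. At the depth estimated from the FPKM steps, about 1453 young and 3741 senescent fragments stood behind it, a ratio of 2.76 after scaling to depth (exact binomial 95% interval 2.60 to 2.94, which covers counting error only). In the authors' deposited table the q-value of this transcript was 0.115, which missed their limit of 0.1. Such a q-value compares these 2 libraries and not the conditions. MMP1 moved from rank 1742 to rank 644 among all genes by level.

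MMP3 encodes stromelysin-1, which cuts proteoglycans, laminin and fibronectin and activates the MMP1 proenzyme (chromosome 11, 102706532 to 102714534, minus strand). It was listed at 0.114 FPKM in the young library, the worth of about 1 fragment, and at 23.8 FPKM in the senescent library. Its log2 ratio of 4.48 was the highest of the members. About 306 fragments stood behind the senescent value. The ratio of fragments rounded to whole numbers was 329 with a counting interval of 58.5 to 13018, and the ratio of FPKM was 209. With about 1 young fragment, the rounding moves this ratio strongly. MMP3 was thus next to absent in the young library at this depth, and in the senescent library it ranked above MMP16 and MMP10.

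The MMP3 signal was divided between 2 annotated transcripts. MMP3-001, the protein-coding transcript of 2016 bases, went from 0.0339 to 8.30 FPKM (q = 0.00172 in the authors' deposited table). MMP3-003, a transcript of 559 bases annotated for nonsense-mediated decay, went from 0.0798 to 15.5 FPKM (q = 0.00519 in the authors' deposited table). It shares an unbroken run of 423 bases with MMP3-001, and it held 65.1% of the senescent FPKM of the gene. By estimated fragments the order was the other way, with about 223 for MMP3-001 and about 82 for MMP3-003 in the senescent library. MMP3-002 was listed at 0 in both libraries.

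MMP10 encodes stromelysin-2, a close relative of MMP3 with a similar range of substrates (chromosome 11, 102641234 to 102651359, minus strand). Its level was 0.550 FPKM in the young and 4.73 FPKM in the senescent library, a log2 ratio of 1.89. About 3 young and 28 senescent fragments gave these values. Their ratio, rounded to whole fragments first, was 10.02 with a counting interval of 3.10 to 51.5, and the ratio of FPKM was 8.60. The gene fell short of 2-fold when 5 FPKM was added in place of 1 (log2 ratio 0.81) and when fragments were counted over its longest transcript (0.97). The value came from MMP10-002, a transcript of 581 bases at 0.550 and 4.64 FPKM (q = 0.0437 in the authors' deposited table). The full-length MMP10-001 of 1758 bases was at 0 and 0.0887 FPKM.

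MMP10 and MMP3 also share sequence. In the GENCODE transcripts, MMP10-002 and MMP3-001 have an identical run of 96 bases, at positions 435 to 530 of the first and 658 to 753 of the second, coding in both. Of the 30-base words of MMP10-002, 20.7% occur in MMP3-001, against 0% in MMP1-001, where the longest shared run was 16 bases. How fragments in the shared run were divided between MMP3 and MMP10 is not given in the sources used here, and its part in the MMP10 value was not tested.

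The cluster at q22.2 of chromosome 11 holds 9 metalloproteinase genes within 435 kb (102391239 to 102826463). MMP10, MMP1 and MMP3 are neighbours in its middle, and they were the genes of the cluster above 1 FPKM in either library. The other 6 were under 1 FPKM in both. MMP7, MMP20, MMP27 and MMP12 were listed at 0 in both libraries, MMP8 was at 0.508 and 0 FPKM, and MMP13 was at 0.0376 and 0.0276 FPKM. MMP12 and MMP8, which flank the 3 genes on either side, were thus at or near 0 in the senescent library. A pseudogene on the opposite strand, RP11-725K16.4, encloses MMP10 and MMP1 and overlaps MMP3. It was at 0.955 and 0.880 FPKM, far under MMP1 in both libraries but above MMP10 and MMP3 in the young one. Whether the reads kept strand is not given in the sources used here, so reads of overlapping genes on opposite strands cannot be told apart.

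The bases before the transcription start are shown for a member that was higher, MMP10, and for the TIMP genes of highest level, TIMP1 and TIMP3, to set their base composition and motifs side by side. RefSeq promoters (GRCh38.p14, so coordinates here are not those of hg19) were matched for 5 members, MMP10, MMP14, TIMP1, TIMP3 and TIMP4. Capitals mark matches to the motifs described after the sequences, on either strand.
MMP10, minus strand of chr11:102780629-102780748, positions -120 to -1 from the start: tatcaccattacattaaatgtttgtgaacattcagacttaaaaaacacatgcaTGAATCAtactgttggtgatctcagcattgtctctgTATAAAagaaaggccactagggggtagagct
TIMP3, plus strand of chr22:32801581-32801700, positions -124 to -5: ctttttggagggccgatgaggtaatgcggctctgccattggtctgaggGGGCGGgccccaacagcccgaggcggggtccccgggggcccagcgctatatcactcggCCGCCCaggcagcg
TIMP1, plus strand of chrX:47582193-47582312, positions -243 to -124: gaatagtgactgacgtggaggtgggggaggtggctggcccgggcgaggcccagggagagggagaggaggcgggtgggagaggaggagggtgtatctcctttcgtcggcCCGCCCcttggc

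The MMP10 stretch holds an AP-1 motif, the site of FOS and JUN dimers (searched as TGANTCA), at positions -67 to -61. It also holds a TATA box (searched as TATAAA) at -31 to -26. In the 250 bases before the start, on either strand, 6.57% of 35116 RefSeq promoters held the AP-1 motif and 10.7% the TATA box. Neither was found in those 250 bases of MMP14, TIMP1, TIMP3 or TIMP4. From the first base that GENCODE places in an exon of the gene to the start were 250 bases for TIMP4, 123 for TIMP1, 28 for MMP14 and 4 for TIMP3. For MMP10 there were none, so these windows are not all upstream sequence. The GC box, the site of SP1 (searched as GGGCGG), is in 42.6% of promoters. It occurred 5 times before TIMP3, of which the stretch above shows those nearest the start, 2 times before TIMP1, once each before TIMP4 and MMP14, and not before MMP10. A further AP-1 variant (searched as TGAGTAA, in 2.21% of promoters) was found in the TIMP1 promoter at -101 to -95, outside the stretch shown. The GC content was 34.4% for MMP10, 56.8% for MMP14, 62.8% for TIMP4, 64.8% for TIMP1 and 72.4% for TIMP3, with a median of 58.0% over all promoters. Only 4.82% of promoters had a lower GC content than that of MMP10. These are matches of letters, and binding was not measured.

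MMP2 encodes gelatinase A, which cuts denatured collagen and the collagen of basement membranes (chromosome 16, 55512742 to 55540603, plus strand). It had the highest level of the metalloproteinases in both libraries, 458 FPKM in the young and 347 FPKM in the senescent one, with a log2 ratio of -0.40. Newly assembled isoform models, built on annotated transcripts, carried most of the MMP2 signal. Of these, 1 isoform of 3203 bases went from 447 to 337 FPKM and held 97.5% and 97.2% of the level of the gene. The annotated MMP2-001 of 3741 bases was at 7.38 and 5.97 FPKM. The estimated fragments, 21954 and 15476, were the most of any member and gave a ratio of 0.757 (counting interval 0.741 to 0.773). The interval lies below 1, but the spread between cultures is not known.

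MMP14 encodes a membrane-type metalloproteinase that activates the MMP2 proenzyme at the cell surface in a complex with TIMP2 (chromosome 14, 23305766 to 23318236, plus strand). Its level was 45.2 and 40.4 FPKM, a log2 ratio of -0.16. A new isoform of 3542 bases at 43.7 and 36.9 FPKM made up most of it, while the annotated MMP14-001 of 3726 bases went from 0.535 to 2.52 FPKM. The direction of the gene thus depended on which transcripts were summed, and with exact annotated matches alone its log2 ratio was 1.20. The authors' deposited table gave that annotated transcript a q-value of 0.132.

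MMP16 encodes another membrane-type enzyme (chromosome 8, 89044237 to 89340254, minus strand). It was at 11.01 and 12.2 FPKM, a log2 ratio of 0.13, which was -0.28 with exact annotated matches alone. A new isoform of 821 bases, at 7.27 and 9.28 FPKM, held 66.0% and 76.2% of the level. The annotated MMP16-001 of 11558 bases was at 1.43 and 1.91 FPKM. By estimated fragments MMP16-001 had more, about 258 and 321, against about 72 and 85 for the new isoform. RP11-586K2.1, a noncoding transcript on the opposite strand that overlaps the gene, was at 0.944 and 1.29 FPKM.

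**Figure D2:**
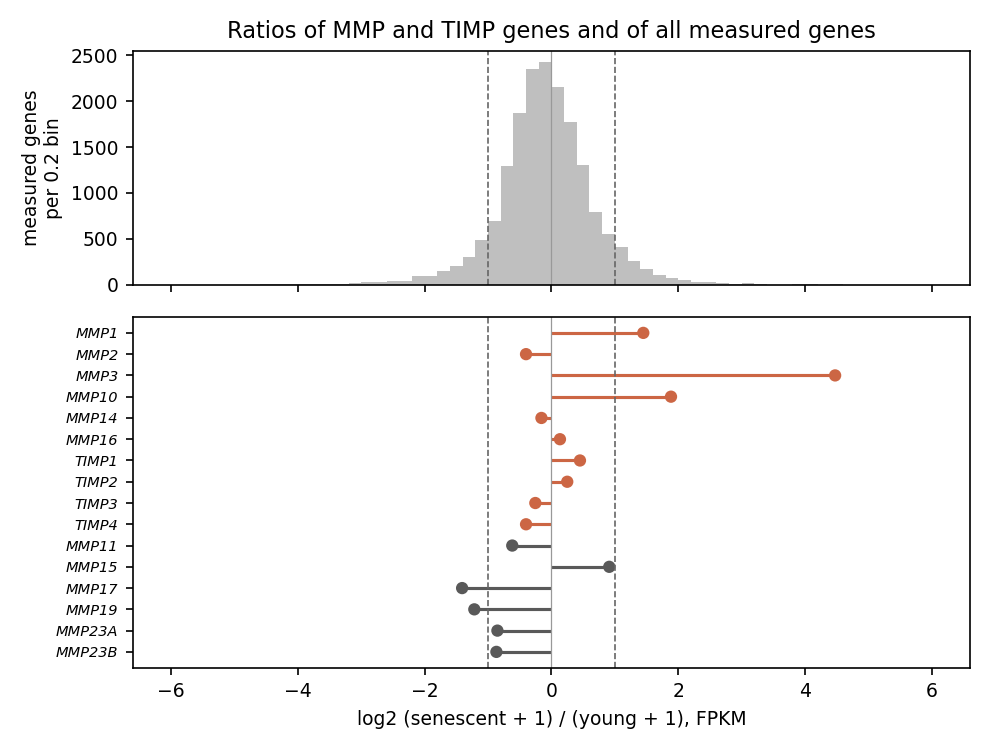
Upper panel: number of measured genes per bin of the log2 ratio of senescent over young FPKM after 1 FPKM was added to both. Lower panel: the ratio of each member (upper 10 genes) and of the other measured metalloproteinase genes (lower 6), with dashed lines at 2-fold: MMP1, MMP3 and MMP10 lie beyond the right line, at 1.45, 4.48 and 1.89, and MMP17 and MMP19 beyond the left one.

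TIMP1, a secreted inhibitor of most metalloproteinases, had the highest level of the members in both libraries (chromosome X, 47441712 to 47446188, plus strand). It was at 2182 FPKM in the young and 2981 FPKM in the senescent library, ranks 17 and 15 among all genes, with a log2 ratio of 0.45. A set of 4 short transcripts of 341 to 535 bases held 97.9% and 98.1% of that level. Among them a new isoform of 407 bases went from 721 to 1302 FPKM, while another of 535 bases went from 384 to 218 FPKM. The annotated TIMP1-001 of 892 bases was at 43.4 and 53.6 FPKM. The lowest q-value of these 5 transcripts in the authors' deposited table, that of the isoform of 407 bases, was 0.336. FPKM of transcripts about as short as the fragments rests strongly on how length is corrected. The order of members by fragments differed from that by FPKM, with MMP2 above TIMP1, at about 8960 and 10660 fragments for TIMP1.

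TIMP2, which inhibits MMP2 and also takes part in its activation, was at 77.5 and 92.2 FPKM, a log2 ratio of 0.25 (chromosome 17, 76849059 to 76921469, minus strand). TIMP2-201 carried 90.9% and 94.4% of the level, at 70.4 and 87.1 FPKM. TIMP2-001 was at 6.007 and 4.10 FPKM. The overlapping gene AC100788.1, on the same strand, was at 7.56 and 6.16 FPKM.

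TIMP3, the inhibitor that stays bound to the matrix and also blocks ADAM and ADAMTS proteases, was at 332 and 278 FPKM, a log2 ratio of -0.25 (chromosome 22, 33197687 to 33259030, plus strand). Behind this near-level sum its transcripts differed. TIMP3-201, of 4531 bases, went from 2.82 to 44.9 FPKM, 15.9-fold, with the lowest q-value of any member transcript in the authors' deposited table (1.61e-07). TIMP3-001, of 4603 bases, went from 70.3 to 36.5 FPKM (q = 0.281 in the authors' deposited table). The transcripts over 4000 bases together were at 73.3 and 81.4 FPKM, so their sum differed far less than TIMP3-201 did. The 3 annotated transcripts start within 19 bases of each other, while TIMP3-201 ends at 33256167 and TIMP3-001 at 33259030. TIMP3-201 and TIMP3-001 are close in length although their ends lie apart, and how their exons differ was not examined. A new isoform of 462 bases went from 259 to 197 FPKM and held most of the level of the gene. By estimated fragments, which weight long transcripts more, TIMP3 had a ratio of 1.04, so its direction depended on how transcripts were summed.

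TIMP4, an inhibitor best known from the heart, was the lowest TIMP, at 1.13 and 0.617 FPKM, a log2 ratio of -0.40 (chromosome 3, 12194551 to 12200851, minus strand). About 26 and 13 fragments stood behind it, and the counting interval of their ratio of 0.537, from 0.253 to 1.08, included 1. No difference in TIMP4 was detectable at this depth.

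TIMP1, TIMP3 and TIMP4 each lie within a synapsin gene on the opposite strand. Synapsins are synaptic vesicle proteins of neurons. SYN1 around TIMP1 was at 0.404 and 0.209 FPKM, SYN3 around TIMP3 at 0.857 and 0.507 FPKM, and SYN2 around TIMP4 at 0.9505 and 0.114 FPKM. The host genes thus stayed under 1 FPKM in both libraries, far below TIMP1 and TIMP3, while SYN2 and TIMP4 were of like level in the young library.

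**Figure D3:**
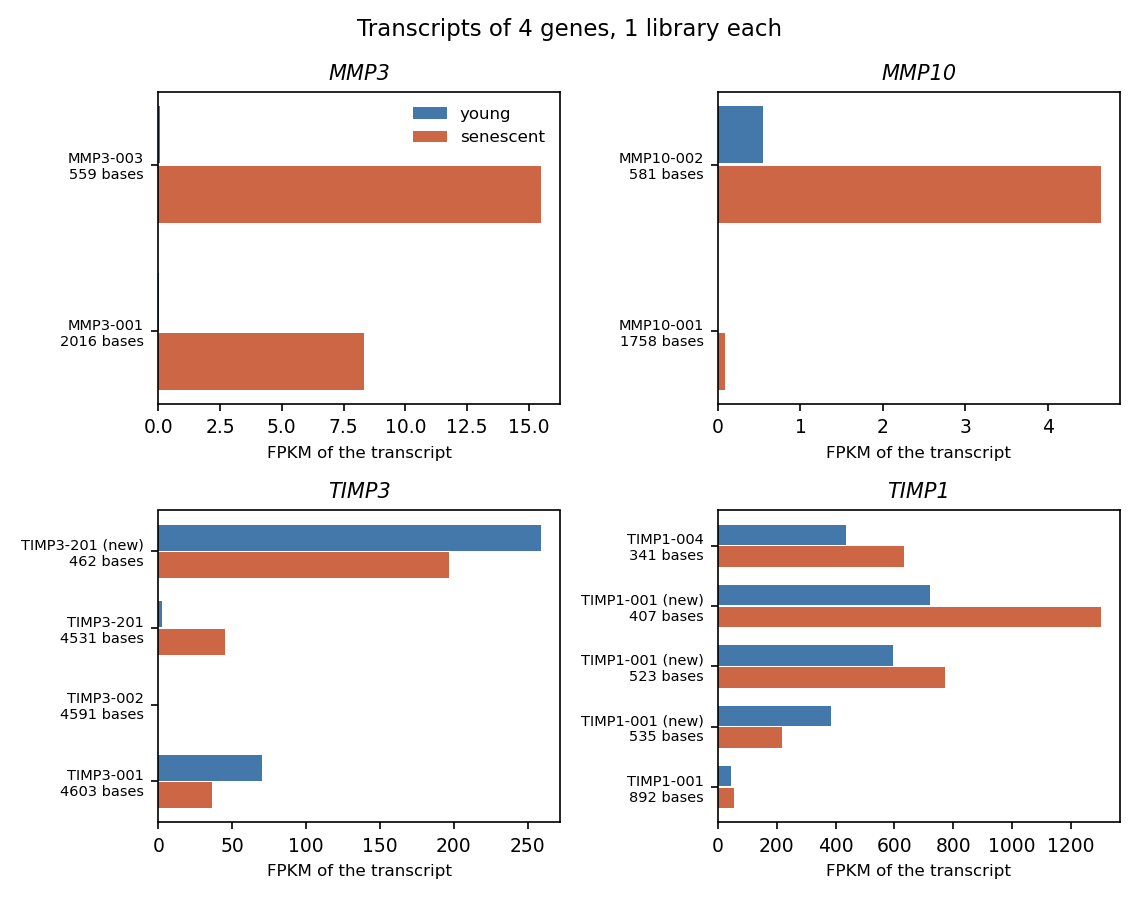
FPKM of single transcripts of MMP3, MMP10, TIMP3 and TIMP1 in the young and senescent libraries (1 library each), labelled by annotated name and length; "new" marks assembled isoforms named after the nearest annotated transcript. Within TIMP3, TIMP3-201 (2.82 and 44.9 FPKM) and TIMP3-001 (70.3 and 36.5 FPKM) go in opposite directions, and within TIMP1 the isoforms of 407 and 535 bases do.

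Of the 37 member transcripts, 30 had a status in the authors' deposited table that allowed their test, and 4 of these were marked significant. The 4 were MMP3-001, MMP3-003, MMP10-002 and TIMP3-201, all higher in the senescent library. Over all transcripts of that status, 1.32% were marked significant and higher. Here too the members were chosen with earlier results of these data known.

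The sum over the 6 metalloproteinases hardly differed, 567 FPKM in the young and 571 FPKM in the senescent library, but its make-up did. The like total rested on the new MMP2 isoform, and with exact annotated matches alone the sums were 65.3 and 183 FPKM. MMP2 held 80.9% of the young sum and 60.8% of the senescent sum, and MMP1 went from 9.11% to 25.0%. MMP3 went from 0.0200% to 4.17%, and MMP10 from 0.0971% to 0.829%. MMP14 held 7.97% and 7.08%. In the sums of 567 and 571 FPKM, the share of the gelatinase was thus smaller, and the shares of the collagenase and the stromelysins larger. With exact annotated matches alone, MMP1 was at 51.6 of 65.3 FPKM in the young and 143 of 183 FPKM in the senescent library. The share of the collagenase was thus not larger under that setting. The 4 TIMPs summed to 2593 and 3352 FPKM, and TIMP1 held 84.2% and 88.9% of that sum. TIMP FPKM over metalloproteinase FPKM was 4.57 for the young culture and 5.87 for the senescent one. This ratio depended on the transcripts summed. With exact annotated matches alone it was 9.70 and 4.72, the other direction, and with fragments over the longest transcript 1.32 and 1.60. These are ratios of transcript levels, and protein and enzyme activity were not measured.

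Of 18 other metalloproteinase genes, 6 were measured, none was higher and 2 were lower. MMP19, a secreted enzyme, was at 11.4 and 4.35 FPKM (log2 ratio -1.22), and MMP17, which is anchored in the membrane, at 3.12 and 0.551 FPKM (-1.41). MMP11, stromelysin-3, was at 3.01 and 1.61 FPKM. MMP15, another membrane-type enzyme, was at 0.184 and 1.23 FPKM, a log2 ratio of 0.91. MMP23A was at 1.24 and 0.239 FPKM and MMP23B at 1.54 and 0.392 FPKM; these are near-identical copies, and their division is uncertain. The median log2 ratio of the 6 was -0.86.

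Genes that act with the metalloproteinases were taken from lists (the share of all genes past the rule, 6.65% higher and 8.58% lower, stands beside each count). Of 6 measured activators of the proenzymes, none passed the rule, with a median log2 ratio of 0.49. PLAU, the urokinase that starts plasmin formation, was at 164 and 198 FPKM, and PLAT, the tissue activator, at 289 and 533 FPKM. PLAUR, the urokinase receptor, was at 39.8 and 54.5 FPKM. FURIN, the convertase that activates MMP14, was at 13.6 and 20.2 FPKM, and PCSK5, another convertase, at 2.62 and 5.32 FPKM.

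Of 9 measured inhibitors and clearance receptors outside the TIMP family, 3 were higher and 2 lower (median 0.61). Among the higher ones were SERPINB2 and SERPINE2, which block serine proteases. SERPINB2 was at 4.14 and 45.8 FPKM (log2 ratio 3.19) and SERPINE2 at 37.4 and 253 FPKM (2.72). A2M, a trap for proteases of many classes, was lower, at 183 and 30.01 FPKM (-2.57), as was THBS2, which takes part in MMP2 clearance and is named here after its values were seen, at 14.8 and 4.20 FPKM (-1.60). THBS1 was at 2205 and 2966 FPKM. The genes of this list thus went both ways, with SERPINB2 at the upper end and A2M at the lower.

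Of 10 measured surface partners and TIMP-controlled proteases, 3 were higher and none lower (median 0.63). CD44, the hyaluronan receptor that docks metalloproteinases at the surface, was at 1625 and 5138 FPKM (log2 ratio 1.66). ADAMTS5, an aggrecanase blocked by TIMP3, was at 0.416 and 4.23 FPKM (1.89), while the aggrecanase ADAMTS4 was at 1.32 and 0.225 FPKM. ITGA2, the collagen receptor subunit that binds MMP1, was at 30.6 and 70.7 FPKM (1.18). ITGB1, its partner subunit, was at 871 and 1563 FPKM, and CD63, a surface receptor of TIMP1, at 395 and 735 FPKM.

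Of 18 measured substrate genes, 10 were lower and none higher, with a median log2 ratio of -1.18. The collagen gene COL3A1 was at 397 and 57.4 FPKM (log2 ratio -2.77), and COL1A1 at 3994 and 1242 FPKM (-1.68). TNC (tenascin) was at 234 and 36.4 FPKM (-2.65), the proteoglycan BGN at 312 and 49.2 FPKM (-2.64) and the basement membrane gene NID1 at 45.2 and 7.43 FPKM (-2.45). FN1 (fibronectin) was at 6810 and 2490 FPKM (-1.45). SPARC, a collagen-binding glycoprotein, went the other way within 2-fold, at 1254 and 1995 FPKM. SPARC was among the 8 measured substrate genes that stayed within 2-fold.

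**Figure D4:**
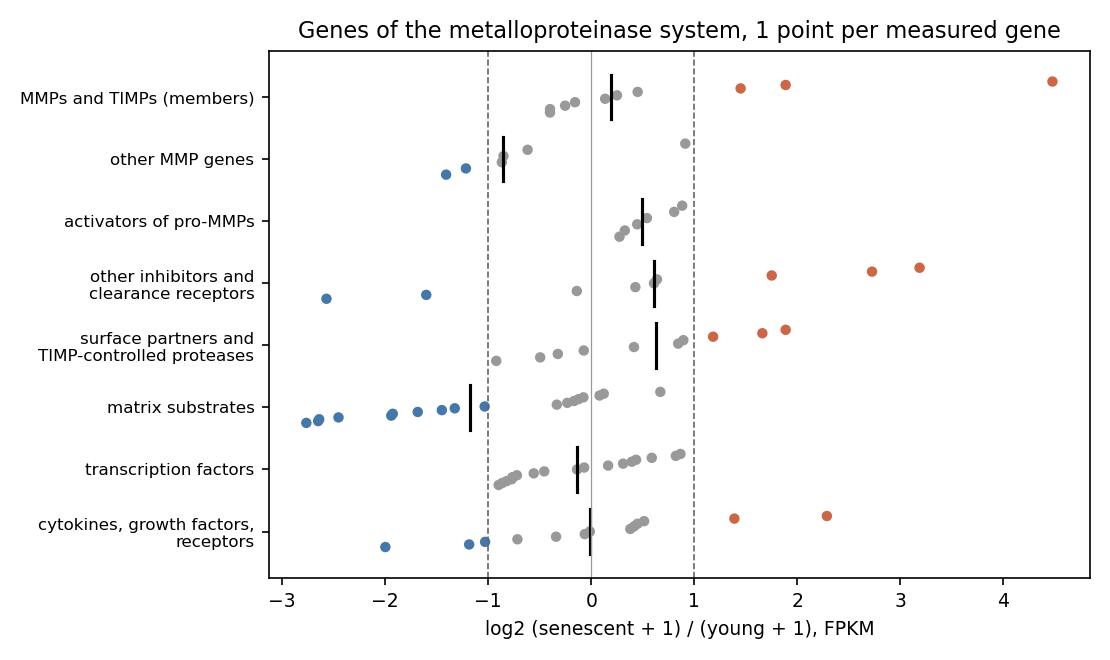
Log2 ratio of senescent over young FPKM (1 FPKM added), 1 point per measured gene of each list, with black bars at list medians and dashed lines at 2-fold. The matrix substrates lie to the left (10 of 18 beyond the line), all transcription factors lie within 2-fold, and MMP3 is the point farthest to the right, at 4.48.

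Of 17 measured transcription factors known from metalloproteinase promoters, none passed the rule (median -0.14). Among the AP-1 subunits, FOSL1 was at 144 and 217 FPKM, FOSL2 at 13.6 and 7.04 FPKM, JUNB at 6.63 and 3.32 FPKM and JUND at 4.74 and 2.08 FPKM. ETS2, of the ETS family, was at 18.6 and 34.7 FPKM, and ETV5, of the same family, at 71.6 and 68.2 FPKM. SMAD3, which carries the TGF-beta signal, was at 185 and 135 FPKM.

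Of 13 measured cytokines, growth factors and receptors that act on these genes, 2 were higher and 3 lower (median -0.01). TGFB2 was at 9.31 and 49.3 FPKM (log2 ratio 2.29) and FGF2 at 4.33 and 13.0 FPKM (1.39). IL1R1, the interleukin-1 receptor, was at 67.6 and 16.2 FPKM (-2.00), and TGFBR1 at 13.8 and 5.51 FPKM (-1.19). The third lower gene, IL1B, named here after its values were seen, was at 1.44 and 0.196 FPKM (-1.03). The receptor genes TNFRSF1A, at 170 and 232 FPKM, and TGFBR2, at 74.2 and 99.2 FPKM, stayed within 2-fold.

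Markers of the culture and of other cell types were read beside these results. CDKN1A, the p21 inhibitor of the cell cycle, was at 306 and 862 FPKM, MKI67, a proliferation marker, at 34.7 and 1.33 FPKM, and LMNB1, the lamin known to be lost in senescence, at 37.5 and 0.901 FPKM. CDKN2A was at 27.3 and 30.4 FPKM. All 10 fibroblast markers were measured, summed to 10300 and 5825 FPKM, and 4 of them were lower and none higher. The 4 were FAP and COL1A1, COL1A2 and DCN, and the last 3 also stand in the substrate list. The fall of the sum is thus not separate from that of the substrates. Within 2-fold were, among others, VIM at 3477 and 3131 FPKM, PDGFRA at 124 and 112 FPKM and THY1 at 149 and 203 FPKM. Of 8 epithelial markers 5 were measured (sum 24.8 and 17.2 FPKM), 1 higher and 1 lower, with SFTPC at 0 in both. KRT18 was at 2.84 and 6.75 FPKM, KRT19 at 11.5 and 1.37 FPKM and MUC1 at 6.38 and 6.49 FPKM. Of 6 endothelial markers only TEK was measured, at 18.8 and 8.16 FPKM, with CDH5 at 0. Of 8 blood cell markers 4 were measured (sum 72.2 and 64.3 FPKM), none higher and 1 lower, with ELANE at 0 and PTPRC, the common leukocyte antigen, at 0.472 and 0.391 FPKM. The macrophage markers CD163 and CD68 were at 53.9 and 40.3 FPKM and at 14.3 and 21.1 FPKM, and CD74 was at 2.81 and 0.752 FPKM. The part of other cell types in the member levels was not tested.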

How the data were processed

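Per the labels' protocols, cDNA of total RNA was amplified with a NuGEN kit that copies polyA-tailed and other RNA. The tools TopHat2 2.0.6, Cufflinks 2.0.2 and Cuffdiff and the build hg19 come per the submitters' processing notes. Annotation, strand and order of steps are not given in the sources used here. The authors deposited 1 table of transcripts with an FPKM per library, scaled to the depth of the library. The same deposited table gives each transcript the authors' p-value and q-value, where significant means status OK and a q-value under 0.1. By elimination, the column named old stands for the senescent library: the remaining column is named young, and there are 2 samples. Transcript lengths in bases and other annotation fields come from the deposited table.

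FPKM were summed per gene name over 3 transcript classes (exact match, new isoform and contained). Ratios were log2 of senescent over young after adding 1 FPKM, which understates the differences of low genes. Measured genes had 1 FPKM in at least 1 library, and 2-fold was the rule of size, since 1 library a group allows no test. Named were all members, their transcripts at 1 FPKM or more or marked significant (at most 6 each by mean), other measured MMP genes and, per list, the 4 measured genes of largest ratio and the 3 of highest mean. Genes of the chromosome 11 cluster, THBS2, IL1B, several cell type markers and a few low transcripts were named outside this rule, and 1 gene that the rule names is not reported here. The members and lists were chosen with earlier results of these data known.

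Depth was estimated from the steps of FPKM values in unannotated single-transcript loci over 400 bases, as fragments over a length reduced by 200 bases. It came to 15900000 young and 14810000 senescent fragments. Within a tolerance of 0.05, 82.0% of 2085 and 84.2% of 2558 values were whole, against 10% by chance. For annotated genes the fragments are estimates, and those of a gene were rounded to whole numbers before ratios were taken. At 2000 bases, 1 fragment is worth 0.0349 and 0.0375 FPKM. The scripts were in Python 3.11.15 with pandas 2.3.3 and scipy 1.17.1. Their depth estimate and 2-fold rule were run on simulated data. For the rule these held no noise and no genes of low level, so the run checks the code and not the results. Alternatives were other pseudocounts, minimums, folds, transcript classes and scalings.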

Additional observations from a re-analysis of the deposited data

Results flagged for a closer look

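An assembled transcript of 837 bases inside an intron of MMP16, outside the classes summed for the gene, was at 0.533 FPKM in the senescent and 0.0992 FPKM in the young library, about 5 and 1 fragments. It stood out as a signal above the young library in transcripts that the comparisons do not use. The authors' deposited table gave it a q-value of 0.566.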

How the results depend on the processing

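The members were compared under 15 other settings, of which 1 (estimated fragments over the longest transcript) was chosen after seeing the data. The number of members higher was between 2 and 4, and none was lower under any of them. It was 2 with 5 FPKM added, with a minimum of 5 FPKM (8 members measured), with a 3-fold rule and with fragments, and 4 with exact annotated matches alone. Of 128 values of single members, 121 kept their direction and side of the rule, and 5 of 3 members had the other sign. MMP10 fell short of 2-fold with 5 FPKM added (0.81) and with fragments (0.97), and MMP14 reversed with exact matches alone (1.20, against -0.16). MMP16, at 0.13, was at -0.28 with exact matches alone and -0.15 with every class. TIMP3, at -0.25, was at 0.15 with exact matches alone and 0.059 with fragments, and MMP16 and TIMP3 stayed within 2-fold under all settings run. The median log2 ratio of the members, 0.19, was 0.38 with exact matches alone, -0.073 with every class of transcript and 0.31 with the highest transcript per gene. Of all genes, 1195 were higher, against 464 with 5 FPKM added, 751 with a minimum of 5 FPKM, 2611 at 1.5-fold, 368 at 3-fold and 788 with fragments. In all, 1541 were lower, against 2492 with 0.1 FPKM added, 499 with 5 FPKM added, 911 with a minimum of 5 FPKM, 3653 at 1.5-fold and 555 at 3-fold. The cause was not tested where the setting itself does not give it. Other scalings moved the log2 ratios by -0.01 (upper quartile), 0.09 (median ratio) and 0.08 (trimmed mean). No paired analysis was possible because each group has 1 library. Depth limits MMP3 and MMP10 in the young library, at about 1 and 3 fragments, and TIMP4 in both, at about 26 and 13.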

Other observations

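Under the member names the table also lists 8 transcripts outside the summed classes. In introns of TIMP2, a transcript of 1178 bases was at 23.4 FPKM in the young and 12.4 FPKM in the senescent library, and one of 817 bases at 10.5 and 6.98 FPKM. In introns of MMP16, a transcript of 807 bases was at 2.50 and 0.336 FPKM and one of 964 bases at 1.07 and 0.0889 FPKM. Beyond the end of MMP2, a possible run-on transcript of 766 bases was at 3.37 and 0.951 FPKM. Each of these 5 transcripts had a smaller FPKM in the senescent library, but not all passed the 2-fold rule after 1 FPKM was added. The authors' deposited table marked none of them significant. TIMP2 and TIMP3 each have another one, overlapping exons, at 0 in both libraries.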
